A study of Mus musculus with 9 samples.

Results

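The 10 genes described here encode apolipoproteins and the proteins that assemble or mature lipoproteins, namely Apoa1, Apoa2, Apoa4, Apoa5, Apob, Apoc1, Apoc3, Apoe, Mttp and Lcat. They were selected by gene symbol from a table of 21873 genes, and each symbol matched 1 gene. All 10 passed the filter on low values and belonged to the 14094 genes tested. Liver mRNA was sequenced from male C57BL/6 mice aged 8 weeks at the start, with 3 libraries in each of 3 groups. Control mice (NS) received normal saline i.p. for 8 weeks. TAA mice received thioacetamide, a hepatotoxin used to induce liver fibrosis, at 200 mg/kg i.p. every 3 days for 8 weeks, and control and TAA livers were taken 72 h after the last injection. Recovery mice received the same TAA course and were then left without it for 8 weeks, so these mice were 8 weeks older at collection than those of the other groups, and age and recovery cannot be told apart. The comparisons asked which mRNAs differed in the fibrotic liver and which differed again after withdrawal of the injury.

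Hepatocytes make most of the apolipoproteins of the blood. On the endoplasmic reticulum, the microsomal triglyceride transfer protein (Mttp) loads lipid onto apolipoprotein B, which forms the structural core of very low-density lipoprotein (VLDL). Apolipoproteins A-I and A-II form the scaffold of high-density lipoprotein (HDL), on which lecithin-cholesterol acyltransferase (Lcat) esterifies cholesterol, while the smaller apolipoproteins C and E move between particles and govern lipolysis and receptor uptake.

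In the mm10 build used by the authors, 4 of the genes lay in a cluster on chromosome 9. Apoc3 was listed at chr9:46225094-46235636 on the minus strand, Apoa1 at chr9:46228580-46230466, Apoa4 at chr9:46240696-46243459 and Apoa5 at chr9:46268633-46271919, the last 3 on the plus strand. Apoc1 (chr7:19689481-19692660) and Apoe (chr7:19696109-19699188) were neighbours on the minus strand of chromosome 7. The others lay apart, with Apoa2 at chr1:171225054-171226379 and Apob at chr12:7977648-8016835 on the plus strand, and Mttp at chr3:138089854-138144968 and Lcat at chr8:105939551-105943382 on the minus strand. The Apoc3 locus of the table enclosed Apoa1, whereas GENCODE M21 starts Apoc3 at 46232933. The strand setting of the counting is not given in the sources used here, and fragments of Apoa1 and Apoc3 in a shared interval could not be told apart. The same applied to genes whose exons overlap exons on the opposite strand in GENCODE M21, namely Apoa4 (634 bases with Gm47528 and 632 with Gm10680), Apoa5 (524 with Gm47544) and Mttp (457 with Trmt10a and 132 with Gm43691).

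Promoter windows from RefSeq (GRCm38.p6, 300 bases around the start, the last 50 of them transcribed) matched 8 of the 10 symbols. Windows of 4 genes are shown because their mRNAs carried the contrasts described below, with Apoa1 and Apoa2 among the largest differences, Apob as the VLDL scaffold, and Apoa4 as the gene that departed from the others. Capitals mark CAAAG on either strand (CTTTG when read on the other strand), the core of the element bound by the hepatocyte nuclear factor HNF4A, and TATAAA, the TATA box. Each window is read 5′ to 3′ on the plus strand, at chr9:46228380-46228679 for Apoa1, chr1:171224804-171225103 for Apoa2, chr9:46240594-46240893 for Apoa4 and chr12:7977427-7977726 for Apob.
Apoa1: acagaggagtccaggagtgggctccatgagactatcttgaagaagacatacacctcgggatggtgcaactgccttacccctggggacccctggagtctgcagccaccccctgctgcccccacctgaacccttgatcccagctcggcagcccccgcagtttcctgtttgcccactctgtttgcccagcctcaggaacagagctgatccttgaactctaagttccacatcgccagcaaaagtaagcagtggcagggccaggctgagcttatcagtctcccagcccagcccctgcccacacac
Apoa2: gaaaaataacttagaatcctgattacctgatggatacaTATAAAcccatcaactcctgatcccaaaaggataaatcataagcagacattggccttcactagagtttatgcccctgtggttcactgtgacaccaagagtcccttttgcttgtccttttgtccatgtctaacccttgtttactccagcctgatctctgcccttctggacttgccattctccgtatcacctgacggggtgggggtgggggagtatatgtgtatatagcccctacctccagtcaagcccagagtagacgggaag
Apoa4: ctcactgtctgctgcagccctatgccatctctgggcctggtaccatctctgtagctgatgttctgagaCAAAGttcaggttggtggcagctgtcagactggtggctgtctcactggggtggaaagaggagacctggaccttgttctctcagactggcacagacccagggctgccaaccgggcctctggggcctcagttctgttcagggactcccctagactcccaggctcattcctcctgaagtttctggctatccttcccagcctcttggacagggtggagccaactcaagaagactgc
Apob: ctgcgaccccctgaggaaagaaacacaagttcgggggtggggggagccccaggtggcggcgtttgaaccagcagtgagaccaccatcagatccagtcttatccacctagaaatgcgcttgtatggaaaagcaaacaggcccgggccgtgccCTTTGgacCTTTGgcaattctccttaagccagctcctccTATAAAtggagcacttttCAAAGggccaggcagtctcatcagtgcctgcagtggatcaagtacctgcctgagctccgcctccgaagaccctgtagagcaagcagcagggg
The Apob window held CAAAG at 3 positions and a TATAAA at position -60 from the RefSeq start, the Apoa4 window held CAAAG at position -182, and the Apoa2 window held TATAAA at position -212. The Apoa1 window held neither. The RefSeq start lay 148 bases from the start of the table's Apoa4 locus, 50 bases from that of Apoa1 and 29 bases from that of Apob, and at the same base for Apoa2. CAAAG occurred in 6 of the 8 windows and in 54.0% of 32544 RefSeq promoter windows, and TATAAA in 3 of the 8 and in 13.6% of all. The longer HNF4 elements CAAAGGTCA and CAAAGTCCA, and the C/EBP palindrome TTGCGCAA, occurred in 0 of the 8 windows, and in 0.482%, 0.479% and 0.184% of all windows. These are matches of letters on both strands, in which the longer HNF4 elements contain CAAAG, and binding was not measured.

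The libraries held an estimated 26.8 to 40.6 M fragments. Deposited FPKM (fragments per kilobase of transcript, relative to depth) were brought to a common level with the median-of-ratios method, by dividing by factors of 0.827 to 0.878 in control, 1.29 to 1.38 in TAA and 0.893 to 0.907 in recovery livers, and the result is called scaled FPKM below. The factors differ most for TAA, so that the level of TAA against control libraries moves with the scaling, and results under 3 other scalings are given beside the main ones. Hepatocyte markers (7 genes, among them Alb, Ttr and Ahsg) summed to 37879 to 42217 scaled FPKM in control, 24191 to 31519 in TAA and 46300 to 47817 in recovery livers. Cholangiocyte markers summed to 15.7 to 20.97, 295 to 443 and 27.9 to 38.4, stellate cell markers to 76.3 to 126, 292 to 372 and 104 to 141, and macrophage markers to 136 to 186, 247 to 320 and 211 to 289, none of these genes being at 0 in any library. Alb made up most of the hepatocyte sum (26759 to 30373 in control, 17378 to 23280 in TAA). Of the 7 hepatocyte genes, 1 (Rbp4, -1.43) was called lower with TAA and 0 higher, and Ahsg was level (-0.01). At the FDR alone 3 were lower, Rbp4, Ambp (-0.85) and Ttr (-0.50), against 26.3% of all genes tested. Spp1 made up most of the cholangiocyte sum in TAA livers (274 to 415), and all 6 cholangiocyte genes were called higher. The part of these markers in the results was not tested. In bulk liver, fewer hepatocytes and less mRNA per hepatocyte cannot be told apart. In some features 3 libraries stood apart. TAA 3 held skeletal muscle mRNA (summed 35.1 against at most 0.426 elsewhere), control 1 held Gpnmb at 22.2 against at most 0.188 in the other controls, and recovery 3 held Marco at 19.6 against at most 5.19 in the other recovery livers. Control 1 departed more widely, with endothelial markers summed to 51.1 against 93.3 and 91.9 in the other controls. Its macrophage markers summed to 136 against 180 and 186, and its estimated depth was the lowest, at 26.8 M fragments.

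Of the 10 genes, 8 were down-regulated in TAA against control livers at a false discovery rate (FDR) under 0.05 and a fold change of at least 2, where 8.02% of all genes tested were. At the FDR alone, 9 of 10 were lower against 26.3% of all genes. None was called higher under median-of-ratios scaling, against 17.0% of all genes. The log2 fold changes ran from -1.87 to 0.68 with a median of -1.31, a 2.48-fold lower level, beside 0.02 over all genes tested and -0.98 over the 494 genes with a mean of at least 100 scaled FPKM, which include the 10. Hepatocyte markers had a median of -0.48. Adjusted p-values here and below are from limma with the Benjamini-Hochberg adjustment over all 14094 genes. The counts were 8 without control 1, 7 without TAA 3 and 7 to 8 over all 6 libraries left out in turn.

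**Figure D1:**
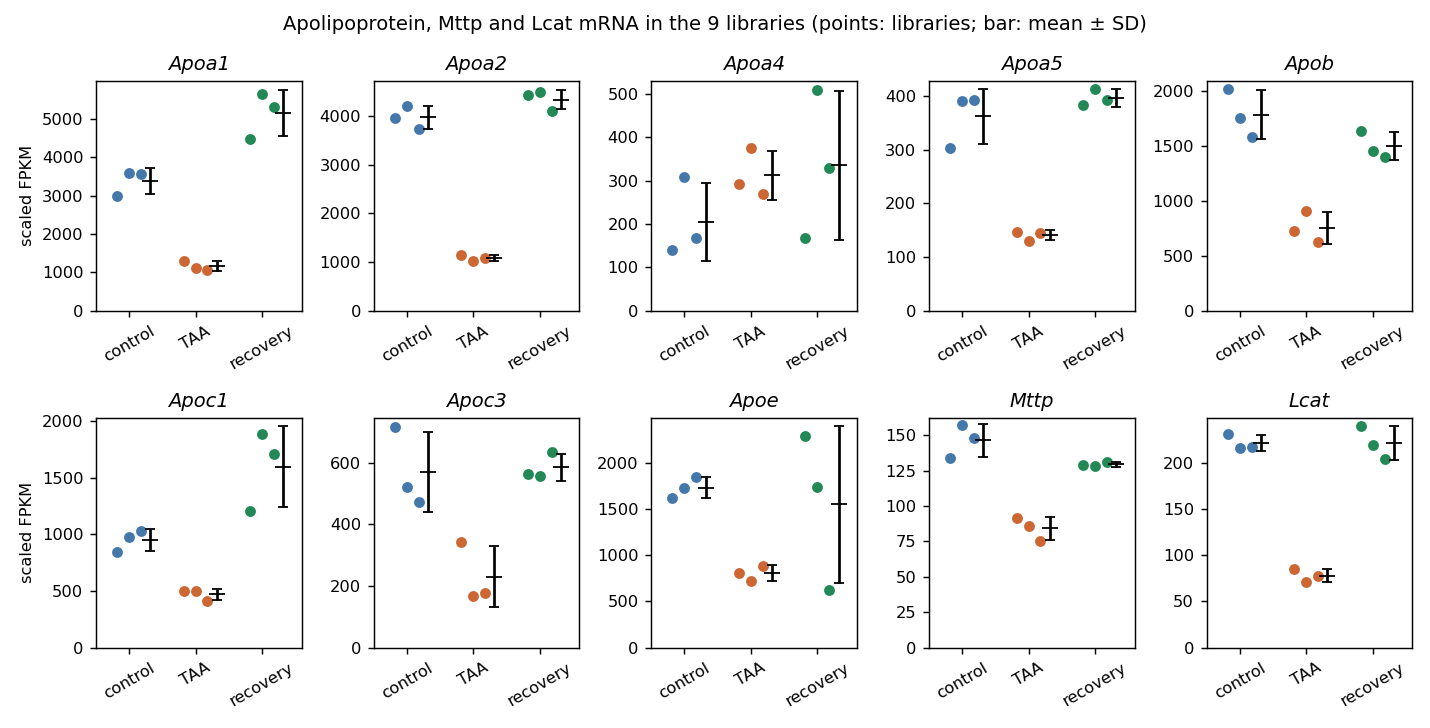
Scaled FPKM of the 10 genes (y axis, linear from 0, its range set per gene) in 3 control, 3 TAA and 3 recovery libraries, with points for libraries and bars for mean ± SD. For 9 genes the TAA points lie below all control points under this scaling, the exception being Apoa4, and the low recovery point of Apoe is recovery 3 at 622. At the FDR alone these 9 were lower, against 26.3% of all genes tested, and the share of all genes without overlap was not computed for scaled FPKM.

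Among the HDL genes, Apoa1, which encodes the principal HDL protein and the activator of Lcat, measured 2996, 3590 and 3572 scaled FPKM in the control livers, 1304, 1109 and 1066 in the TAA livers and 4481, 5641 and 5315 in the recovery livers. The 3 groups did not overlap, with the recovery livers highest. Apoa1 was 2.92-fold lower in TAA than in control livers (log2 fold change -1.55 ± 0.15, SE, adjusted p = 1.45e-04). By FPKM it ranked between 6 and 20 among the mRNAs of each library.

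Apoa2, the other HDL scaffold protein, measured 3958, 4207 and 3741 in control, 1149, 1020 and 1087 in TAA and 4425, 4482 and 4104 in recovery livers. The TAA livers lay far below both other groups, which overlapped each other. The decrease of 3.66-fold (-1.87 ± 0.14, adjusted p = 3.67e-05) was the largest of the 10. The FPKM ratio of Apoa1 to Apoa2 was 0.855 ± 0.099 in control, 1.07 ± 0.08 in TAA and 1.19 ± 0.15 in recovery libraries (SD, n = 3). The ratio did not overlap between TAA and control (exact permutation test, two-sided p = 0.1), and 0.1 is the smallest p that 3 against 3 libraries allow.

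Lcat, the enzyme that esterifies cholesterol on HDL, measured 232, 216 and 218 in control, 84.9, 71.7 and 78.0 in TAA and 241, 219 and 204 in recovery livers. Replicates were close within each group, and only the TAA group stood apart. Lcat was 2.84-fold lower with TAA (-1.51 ± 0.09, adjusted p = 1.94e-05).

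Of the VLDL assembly genes, Apob measured 2016, 1749 and 1575 in control, 722, 906 and 620 in TAA and 1636, 1447 and 1400 in recovery livers. The TAA values lay below all others, and control and recovery livers overlapped. Apob was 2.39-fold lower with TAA (-1.26 ± 0.18, adjusted p = 7.50e-04), a direction that turned under quantile normalization (0.12).

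Mttp, the lipid transfer protein that works on apolipoprotein B, measured 134, 157 and 148 in control, 91.4, 86.0 and 75.5 in TAA and 129, 128 and 132 in recovery livers. The 3 groups did not overlap. Its decrease of 1.74-fold (-0.80 ± 0.11, adjusted p = 5.76e-04) passed the FDR but not the fold change, and with FPKM rescaled to an equal total per library (TPM) the difference was 0.03. The fall of Apob was larger than that of Mttp within the same libraries, since the FPKM ratio of Apob to Mttp was 12.3 ± 2.4 in control, 8.88 ± 1.44 in TAA and 11.5 ± 1.0 in recovery livers (SD, n = 3). TAA did not overlap with either other group (exact permutation test, p = 0.1, the smallest possible). The margin was narrow, with TAA 2 at 10.54 against 10.62 in control 3 and 10.65 in recovery 3.

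Another 3 of the genes act on triglyceride-rich particles. Apoa5, an activator of their lipolysis, measured 304, 391 and 392 in control, 147, 130 and 144 in TAA and 382, 414 and 393 in recovery livers. The TAA livers were close to each other and did not overlap with the rest, and the decrease was 2.56-fold (-1.36 ± 0.13, adjusted p = 1.06e-04). Apoc3, an inhibitor of lipoprotein lipase and of particle uptake, measured 717, 522 and 472 in control, 343, 168 and 177 in TAA and 565, 556 and 633 in recovery livers. TAA 1 stood well above the other TAA livers and control 1 above the other controls, TAA and control did not overlap, and the decrease was 2.59-fold with a wide error (-1.37 ± 0.29, adjusted p = 0.00536). The ratio of Apoa5 to Apoc3 was level over the groups, at 0.668 ± 0.216, 0.675 ± 0.214 and 0.680 ± 0.062 in control, TAA and recovery livers.

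Apoa4, which is made mainly in the intestine and in mouse also in the liver, did not follow the other genes. It measured 140, 309 and 167 in control, 292, 375 and 270 in TAA and 167, 510 and 330 in recovery livers. Control 2 lay inside the TAA range and the other 2 controls below it. The recovery livers ran from 167 to 510, beyond the TAA range on both sides. The log2 fold change with TAA was 0.68 ± 0.29 (adjusted p = 0.0796), which passed the threshold without control 2 (1.01, adjusted p = 0.00405) and under each other scaling, with 1.31 for FPKM as deposited. The FPKM ratio of Apoa4 to its neighbour Apoa1 was 0.0599 ± 0.0227 in control, 0.272 ± 0.060 in TAA and 0.0633 ± 0.0266 in recovery livers, and TAA did not overlap with either other group. Of 6 enterocyte markers, the brush border enzymes Alpi, Lct and Sis were at or near 0 in every library, at most 0.0577 scaled FPKM. Fabp2 was at 57.2 to 72.4 in control, 15.0 to 19.8 in TAA and 41.2 to 61.9 in recovery livers. It was called lower with TAA (-1.92 ± 0.14, adjusted p = 3.65e-05) and higher in recovery against TAA (1.66 ± 0.17, adjusted p = 1.93e-04). Vil1 went the other way with TAA, at most 0.0567 in control and 0.633 to 0.688 in TAA livers (2.63 ± 0.23, adjusted p = 8.31e-05). Cdx2 was at 3.38 to 8.26 over the libraries. The part of intestinal or other epithelial cells in the Apoa4 values was not tested.

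The remaining pair are exchangeable proteins of the chromosome 7 cluster. Apoe, the ligand for receptor uptake of remnant particles, measured 1615, 1728 and 1848 in control, 811, 722 and 886 in TAA and 2288, 1736 and 622 in recovery livers. Recovery 3 lay below every TAA liver, while recovery 1 was the highest of all 9 libraries. Apoe was 2.15-fold lower with TAA (-1.10 ± 0.13, adjusted p = 3.53e-04), and 0.31 under quantile normalization, the opposite sign. Apoc1, an inhibitor of receptor-mediated uptake, measured 845, 976 and 1026 in control, 496, 495 and 414 in TAA and 1203, 1886 and 1705 in recovery livers. The 3 groups did not overlap, and its decrease of 2.03-fold (-1.02 ± 0.13, adjusted p = 4.84e-04) was the smallest that was called and turned to 0.54 under quantile normalization. It fell just short of the fold change without control 2 (-0.997), control 3 (-0.96) or TAA 3 (-0.93). The ratio of Apoc1 to Apoe was 0.548 ± 0.022 in control and 0.588 ± 0.112 in TAA livers, but 0.526, 1.09 and 2.74 in the recovery livers.

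How far the genes fell depended on the scaling. With FPKM as deposited, 9 of the 10 were still below 0 and 8 were lower at the FDR. Of these, 1 (Apoa2, -1.23) reached the fold change, as did 421 of the 14094 genes tested. The median was -0.67 for the 10 and 0.63 for all genes tested. With TPM, 8 of the 10 were below 0, with medians of -0.48 and 0.83. With quantile normalization, 6 were below 0 and 0 were called lower, against 1266 of the 14094 genes tested, with medians of -0.12 and -0.04. Apoa1, Apoa2, Apoa5, Apoc3 and Lcat were below 0 under each of the 4 scalings, Apob, Apoc1 and Apoe were above 0 under quantile normalization, Mttp was above 0 with TPM, and Apoa4 was above 0 under each. Over all genes tested, the share of calls in the higher direction was 67.9%, against 91.2% as deposited, 94.3% with TPM and 55.7% with quantile normalization.

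**Figure D2:**
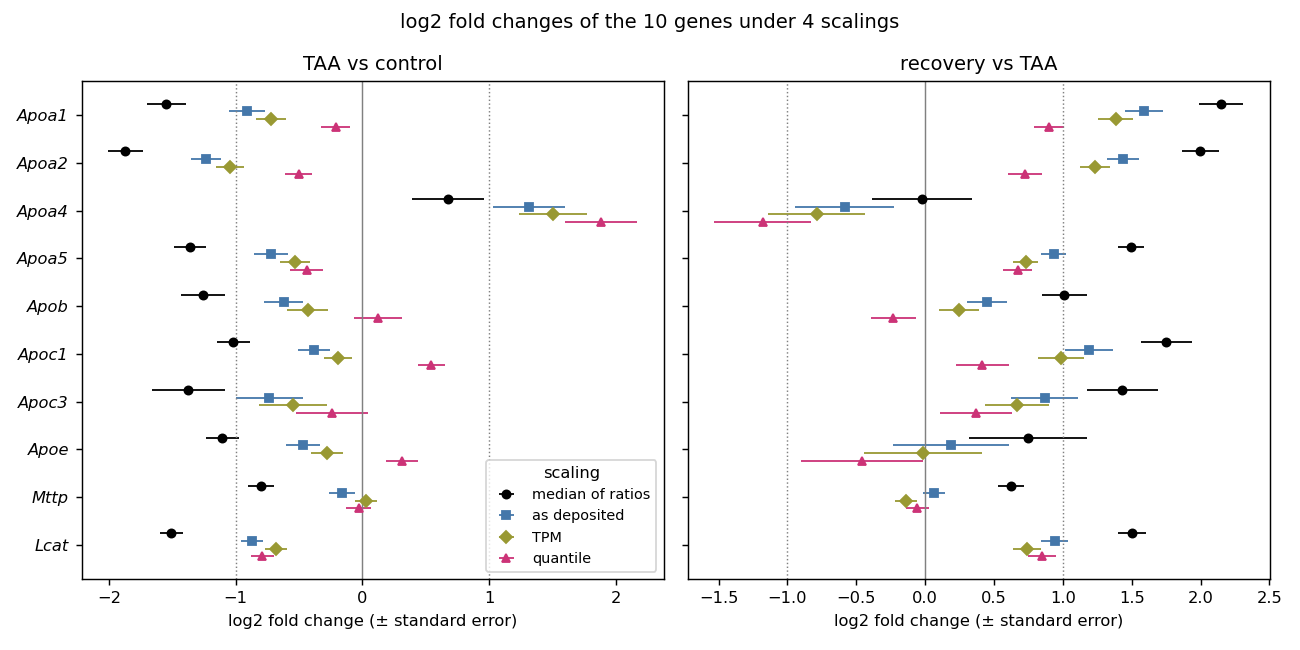
log2 fold changes ± SE (x axis) of the 10 genes for TAA against control (left) and recovery against TAA (right) under 4 scalings, with dotted lines at a fold change of 2. The black median-of-ratios points lie leftmost for every gene at left, and under quantile normalization Apob, Apoc1 and Apoe cross to above 0.

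A ratio within each library does not depend on a factor per library. Relative to Alb, which encodes albumin, 9 of the 10 genes were lower in every TAA than in every control library, against 10.6% of 14093 genes, and Apoa4 was higher in every TAA library, as were 51.4% of all genes. Apoa1 was 12.0% ± 1.3 of Alb in control, 5.69% ± 0.40 in TAA and 14.6% ± 1.5 in recovery livers (SD, n = 3). Apoa2 was 14.0% ± 0.2, 5.37% ± 0.77 and 12.4% ± 1.0 of Alb. For Apoa4 the values were 0.715% ± 0.269, 1.54% ± 0.28 and 0.952% ± 0.487. The smallest differences were those of Mttp, 0.518% ± 0.036 in control, 0.414% ± 0.021 in TAA and 0.369% ± 0.011 in recovery livers, and of Apoc1, with 3.36% ± 0.42, 2.30% ± 0.15 and 4.54% ± 0.93. Each of these TAA against control differences had an exact permutation p of 0.1, the smallest possible. Alb itself had a log2 fold change of -0.48 ± 0.28 with TAA (adjusted p = 0.188), and held 6.09% to 6.74% of all FPKM in control, 7.34% to 8.90% in TAA and 8.11% to 8.61% in recovery livers. The 10 genes together held 2.97% to 3.07%, 2.04% to 2.08% and at least 3.48%. With the geometric mean of the hepatocyte markers as the reference, 9 genes were again lower without overlap, against 10.5% of all genes.

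**Figure D3:**
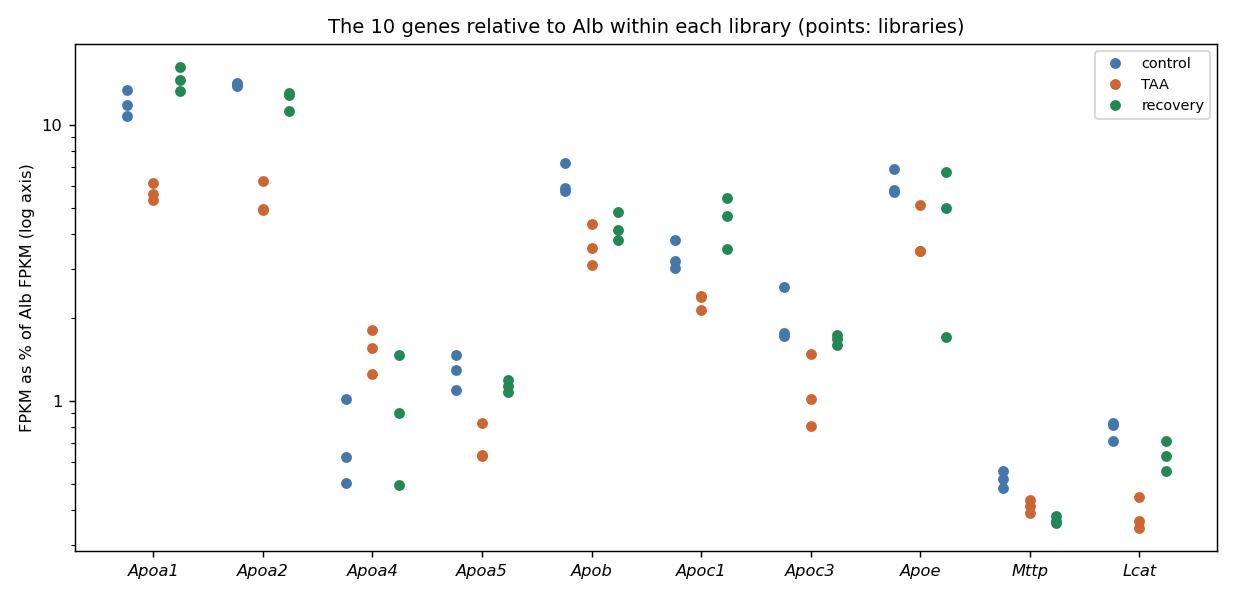
FPKM of the 10 genes as a percent of Alb FPKM in the same library (y axis, log scale), with 1 point per library in control, TAA and recovery livers. The TAA points lie below all control points for 9 genes and above them for Apoa4.

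Against TAA, 7 of the 10 genes were called higher in recovery livers, where 7.12% of all genes were, and at the FDR alone 8 of 10 against 24.5%. None was called lower under median-of-ratios scaling, against 14.3%. This comparison shares the TAA libraries with the one above, so its values are given side by side and not as a repeat. The median log2 fold change was 1.46, beside -0.01 over all genes and 0.88 over the 494 abundant genes. Apoa1 (2.15 ± 0.16, adjusted p = 4.26e-05), Apoa2 (1.999 ± 0.13, adjusted p = 2.60e-05) and Apoc1 (1.75 ± 0.18, adjusted p = 1.97e-04) differed most. Lcat (1.502 ± 0.10), Apoa5 (1.49 ± 0.09) and Apoc3 (1.43 ± 0.26) followed. These 6 genes were above 0 under each of the 4 scalings. Apob was called at 1.01 ± 0.16 (adjusted p = 0.00151), lost the call without TAA 1 (0.99), TAA 3 (0.88) or recovery 1 (0.94), and was -0.23 under quantile normalization. Mttp was higher at the FDR alone (0.62 ± 0.09, adjusted p = 0.00112), and -0.14 with TPM. Apoe did not pass (0.75 ± 0.43, adjusted p = 0.182), and without recovery 3 it did (1.31, adjusted p = 0.00153), while quantile normalization gave -0.46. Apoa4 was at -0.02 ± 0.36, and at lower values with FPKM as deposited (-0.59), TPM (-0.79) and quantile normalization (-1.18, adjusted p = 0.0281), where it was called lower. As deposited, 3 of the 10 were called higher, as were 409 of the 14094 genes tested. The median was 0.90, against -0.55 for all genes tested. Of all calls 33.2% were higher in recovery, 9.89% as deposited, 5.86% with TPM and 44.9% with quantile normalization. Relative to Alb, 6 of the 10 were higher in every recovery than in every TAA library, against 4.97% of all genes. Apob, Apoe and Apoa4 overlapped, and Mttp was lower in every recovery than in every TAA library, as were 70.4% of all genes. Alb itself was at 0.79 ± 0.27 in recovery against TAA (adjusted p = 0.0404). With the geometric mean of the hepatocyte markers as the reference, 6 of the 10 were higher without overlap, against 7.4% of all genes. With that reference 0 were lower without overlap, against 66.2%, and Mttp overlapped.

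Against control, 0 of the 10 genes were called higher in recovery livers, where 0.582% of all genes were, 0 at the FDR alone, against 1.33%, and 0 were called lower, against 0.412%. With limma, 2 of the 10 had an unadjusted p under 0.05, as did 3242 of the 14094 genes tested, a like share. The median was 0.09, beside 0.01 over all genes. Of all calls 58.6% were higher, 69.3% as deposited and 69.4% with TPM. Apoa1 (0.60 ± 0.17, adjusted p = 0.114) and Apoc1 (0.73 ± 0.19, adjusted p = 0.0944) were higher in each recovery than in each control library but did not pass, although with limma Apoa1 passed the FDR under quantile normalization (adjusted p = 0.0494) and with robust variances (0.0461), and Apoc1 in a fit on all 9 libraries (0.0399). Mttp was lower in each recovery library (-0.17 ± 0.08, adjusted p = 0.240). The share of all genes without overlap was not computed for scaled FPKM, so these separations are a description of the values only. The remaining 7 genes overlapped between the groups, and their differences ran from -0.35 for Apoe to 0.65 for Apoa4, the 2 with the widest errors (0.46 each). Relative to Alb, 0 of the 10 were higher in every recovery than in every control library, against 3.77% of all genes, and 4 (Apoa2, Apob, Mttp and Lcat) were lower in every one, against 41.0% of all genes. With the geometric mean of the hepatocyte markers as the reference, 2 of these (Apob and Mttp) were lower without overlap, against 23.3% of all genes. Another 2 (Apoa1 and Apoc1) were then higher without overlap, against 8.46% of all genes.

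Across the 9 libraries the genes other than Apoa4 varied together. Pearson's r of log2(scaled FPKM + 0.1), as a description over points that fall into 3 treatment groups and share their scaling, was positive for all 36 pairs of these 9 genes, from 0.417 for Apoc1 and Apoe to 0.994 for Apoa2 and Lcat. With Apoa4, r ran from -0.45 (Apoe) to 0.11 (Apoc1). Among 11101 genes with a mean of at least 1 FPKM, the patterns most like that of Lcat were those of Chpt1 and Cyp2d10 (r = 0.999 each). Those most like Apoa1 were Zfp652 and Ifnar2 (0.996 and 0.995), and those most like Apoc1 were B2m (0.994) and H2-D1 (0.986). Apoa4 was most like Fst (0.908) and Nnt (0.905), a weaker likeness than that of any other gene here.

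The other genes of the pathway were grouped by role in 7 lists of 62 genes, of which 61 were tested. With TAA, 18 were called lower and 1 higher, where 8.02% and 17.0% of all genes tested were. At the FDR alone 43 were lower and 3 higher, against 26.3% and 28.2%. The median of the 61 was -0.61. As deposited, 3 were called lower, as were 421 of the 14094 genes tested. Among other apolipoproteins, 3 of 7 were lower, namely Apoc4 (-2.78 ± 0.20, adjusted p = 3.82e-05), Apon (-1.70 ± 0.11, adjusted p = 2.57e-05) and Apoh (-1.52 ± 0.13, adjusted p = 8.15e-05). Apoc4 lies in the same cluster as Apoc1 and Apoe in mammals. Apof (-0.97) and Apom (-0.75) passed the FDR alone, and Clu, which encodes apolipoprotein J, did not differ beyond its error (0.05 ± 0.10). Apoc2, the activator of lipoprotein lipase, was at 71.6 scaled FPKM in control 1 and at most 4.72 in any other library, with TAA 2 near 0 (7.57e-07). Its difference of -2.79 ± 1.81 (adjusted p = 0.227) rested largely on control 1 and TAA 2.

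**Figure D4:**
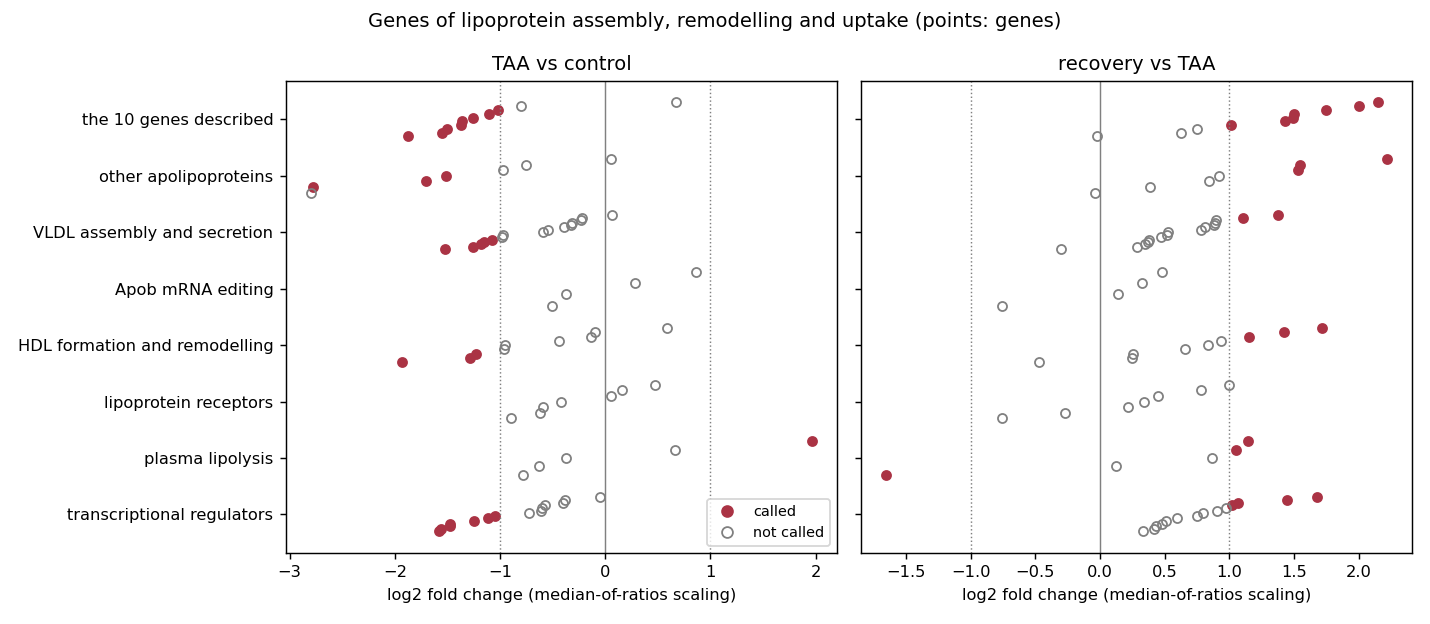
log2 fold changes under median-of-ratios scaling (x axis) of the 10 genes and of the tested genes of 7 lists (rows, 1 point per gene) for TAA against control and recovery against TAA, filled where the FDR was under 0.05 and the fold change at least 2 (dotted lines). Calls lie at left for TAA and at right for recovery, except Lpl, which lies on the opposite side. Fewer genes were called with FPKM as deposited (3 of 61 lower with TAA, against 421 of all 14094 genes tested).

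With TAA, 8.02% of all genes tested were called lower and 17.0% higher. Of 15 genes of VLDL assembly and secretion, 5 were lower with TAA and 0 higher. They were Ces1d, a lipid hydrolase (-1.52 ± 0.15), Mia3, of the exit sites for large cargo (-1.26 ± 0.10), Cideb, of VLDL lipidation (-1.18 ± 0.12), Aadac, another lipid hydrolase (-1.16 ± 0.15), and Dgat1, of triglyceride synthesis (-1.07 ± 0.15). The highest adjusted p of these was 7.64e-04, for Dgat1. Of 4 genes of Apob mRNA editing, 0 were called. Apobec1, the editing enzyme, measured 7.68, 6.08 and 6.03 in control and 12.7, 12.0 and 11.3 in TAA livers (0.86 ± 0.12, adjusted p = 7.86e-04, under the fold change), while its cofactor A1cf was at -0.51 ± 0.11 (adjusted p = 0.00612). Of 9 genes of HDL formation and remodelling, 3 were lower, namely Pon1, an HDL-bound esterase (-1.93 ± 0.15), Lipc, hepatic lipase (-1.29 ± 0.11), and Lipg, endothelial lipase (-1.23 ± 0.12). Abca1, the transporter that lipidates apolipoprotein A-I, was at -0.10 ± 0.10 (adjusted p = 0.448).

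In the transcriptional regulator list, 7 of 14 genes were lower with TAA and 0 higher, against 8.02% and 17.0% of all genes tested. Creb3l3 measured 172, 176 and 168 in control, 57.9, 55.7 and 59.0 in TAA and 164, 149 and 156 in recovery livers (-1.58 ± 0.08, adjusted p = 7.40e-06). Nr0b2 (-1.56), Ppara (-1.48), Cebpa (-1.48), Rxra (-1.25) and Hnf4a (-1.11) were also called, with adjusted p-values of at most 1.50e-04. Hnf4a measured 223, 232 and 189 in control, 105, 101 and 90.2 in TAA and 258, 185 and 186 in recovery livers. Against TAA, 4 of the 14 were called higher in recovery, where 7.12% of all genes tested were. The 4 included Nr0b2 (1.68), Creb3l3 (1.44) and Hnf4a (1.07), while Ppara (0.90), Cebpa (0.98) and Rxra (0.80) passed the FDR alone.

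Lipolysis genes held the pathway's call in the other direction. Lpl, lipoprotein lipase, measured 6.39, 5.37 and 5.89 in control, 26.6, 24.02 and 19.7 in TAA and 6.46, 7.38 and 8.27 in recovery livers. Every TAA value lay above all others, with 1.97 ± 0.13 for TAA against control and -1.65 ± 0.14 for recovery against TAA (adjusted p = 2.66e-05 and 7.51e-05). Of the 5 genes of plasma lipolysis, Lpl was the 1 called with TAA, where 17.0% of all genes tested were called higher. Angptl4 (1.14) and Gpihbp1 (1.05), whose products act on lipoprotein lipase, were called higher in recovery than in TAA livers. Of 7 receptor genes, 0 were called lower or higher with TAA, where 8.02% and 17.0% of all genes tested were. At the FDR alone 3 were lower, against 26.3%. The 3 included Sdc1, a heparan sulfate proteoglycan that takes up remnant particles (-0.90 ± 0.10, adjusted p = 2.12e-04). In all, 14 of the 61 genes were called higher and 1 lower in recovery against TAA, where 7.12% and 14.3% of all genes tested were. Against control 0 were called, where 0.582% of all genes were higher and 0.412% lower. At the FDR alone 1 was higher (Angptl4, 0.51 ± 0.06) and 1 lower (Mia3, -0.45 ± 0.08), against 1.33% and 1.38% of all genes, which are like shares.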

How the data were processed

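Liver mRNA libraries of 9 mice (3 control, 3 TAA, 3 recovery) were made by the authors from total RNA with the NEBNext Ultra RNA kit and sequenced as paired-end reads. Reads were aligned to mm10 (GRCm38) with HISAT2 2.2.1 and counted per gene with featureCounts 1.5.0-p3, as the submitters' processing notes and the methods state, and the authors deposited the values as FPKM. The small RNA libraries were not used here. Libraries were grouped by the treatment in their labels, which number libraries within a group without naming the animal, so p-values measure the spread between these libraries.

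Each library was divided by its median-of-ratios factor, and genes with a mean of at least 0.1 FPKM were tested on log2(scaled FPKM + 0.1) with limma 3.58.1 (R 4.3.3), fitted on the groups of each comparison. Fold changes are on that scale, which understates changes of low genes. The Benjamini-Hochberg adjustment covered all genes tested. A gene was called where its FDR was under 0.05 and it changed by at least 2-fold. The fit was tested on simulated data. Ratios were compared by exact two-sided permutation tests (scipy 1.17.1). Alternatives were other scalings, pseudocounts and filters, limma's treat, a replicate block and each library left out.

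Depth came from the size of the steps in low FPKM, of which 59.2% to 68.5% per library were whole numbers of fragments (tolerance 0.08, where 16% would be whole by chance), so whole reads were not recovered and no count test was made. Loci were identical to GENCODE M21 for 92.4% of genes. Pairing was checked through the residuals of libraries with the same number, whose correlations ran from -0.07 to 0.12. Those of libraries with different numbers ran from -0.11 to 0.13. The numbers were therefore not used as pairs, although correlations over all genes cannot show a pairing that acts on few genes. The 10 genes were given by symbol. The pathway and marker lists, of which Tf and Trbc2 were not matched in the table, were chosen with earlier results of these data known. From these lists, genes called in any comparison were named, up to 6 per list by the size of the TAA difference, together with Alb and, per gene described, the 2 genes with the highest r. Further genes named with values, such as Sdc1, Abca1, Apobec1, A1cf, Apof, Apom, Clu, Apoc2 and marker genes, were chosen after their values were seen. Some genes of the lists are not reported here and were left out of their counts.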

Additional observations from a re-analysis of the deposited data

How the results depend on the processing

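Scaling changed the counts most. With FPKM as deposited, TPM, quantile normalization and limma's treat (tested for changes beyond 2-fold), the genes of the 10 called lower in TAA numbered 1, 1, 0 and 3 in place of 8, and those called higher in recovery against TAA 3, 2, 0 and 5 in place of 7. Of all 14094 genes, 421, 343, 1266 and 500 were called lower in TAA in place of 1131. In recovery against TAA, 409, 315, 1132 and 401 were called higher in place of 1003. Apoa4 was the 1 gene of the 10 called higher in TAA under the first 3, where 4382, 5687 and 1591 of all genes were. It was also the 1 called lower in recovery against TAA under quantile normalization, where 1390 of all genes were. Other pathway genes called lower in TAA numbered 3, 2, 5 and 9 in place of 18, and those called higher in recovery 3, 1, 5 and 5 in place of 14. Under quantile normalization the differences in TAA turned to 0.12 for Apob, 0.54 for Apoc1 and 0.31 for Apoe, and that of Apob in recovery against TAA to -0.23. The cause was not tested.

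Leaving out each library in turn gave 7 to 8 of the 10 genes called lower and 0 to 1 called higher in TAA (1 without control 2, Apoa4). It gave 6 to 8 called higher in recovery against TAA, and 0 to 2 higher relative to Alb in recovery against control. There the geometric mean of hepatocyte markers as reference, with all libraries, gave 2 in place of 0, against 8.46% of all genes. Other pathway genes ran from 17 to 22 and from 12 to 18. With a replicate block, although residuals showed no pairing by number, the counts stayed at 8 lower and 7 higher. Over the whole table the recovery against control calls went from 140 to 17. With treat, recovery against control gave 0 genes, with 88 at an unadjusted p under 0.05. Of all counts recomputed, 106 stayed within 1.5 times the reported value and 23 did not. The 106 include counts of 0 that stayed at 0, so this tally does not measure how firm the calls are. Whole reads were not recovered, so no value has a counting interval, and 3 libraries a group limit every error given.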
